A study of Mus musculus with 61 samples.

Results

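Antioxidant defence was followed through 10 genes, listed because doxorubicin cycles between redox states and makes oxidants as it does so: Sod1, Sod2, Cat, Gpx1, Gpx4, Prdx1, Prdx2, Txn1, Nfe2l2 and Hmox1. The members were taken by name, and all 10 had a row among the 23927 gene rows of the deposited table. The series holds single oocytes and single granulosa cells, the somatic cells that surround the oocyte, from ovaries of wild-type CD-1 mice at postnatal day 5. Each mouse had received an intraperitoneal injection of solvent (control) or of doxorubicin, a chemotherapy drug, and cells were taken 6 hours after it. The labels give the dose as 10 mg/kb, and it is left as written because that unit is not one of dose. There were 16 control oocytes, 16 doxorubicin oocytes, 16 control granulosa cells and 13 doxorubicin granulosa cells, sequenced with a full-length single-cell RNA method.

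No label names the animal of a cell, so each group counts as 1 sample, no test between groups was possible, and cells describe a group without being replicates of it. Levels are counts per 1000000 counts of all gene rows (CPM), from the summed counts of a group or in a single cell. Differences are log2 ratios of group CPM, with exact binomial 95% intervals that cover counting error only. A gene was compared where either group reached 5 CPM, which all 10 members did in all 4 comparisons, and a ratio of 2-fold or more in either direction is called past 2-fold.

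Superoxide dismutases turn superoxide into hydrogen peroxide, and catalase, glutathione peroxidases and peroxiredoxins then remove the peroxide. Thioredoxin returns electrons to the peroxiredoxins. NRF2, the product of Nfe2l2, is held low by KEAP1 and moves to the nucleus under oxidative stress, where it binds antioxidant response elements near genes such as Hmox1. Doxorubicin is known for damaging the ovarian reserve, and oocytes carry large stores of maternal RNA and protein.

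Antioxidant response element cores are shown because NRF2 binds such elements, although a match alone does not place a member under NRF2. In the RefSeq promoter table of build GRCm38.p6, 9 of the 10 members had a window of the bases around the gene start, all but Hmox1. The core TGACNNNGC, searched on both strands, was in the windows of 3 members and in 12.4% of all 32851 windows. The letters of each match are in capitals, and each sequence is written 5′ to 3′ on the strand of its gene. Nfe2l2 lies on the minus strand and the other 2 on the plus strand, and all matches lie upstream of the start.
Nfe2l2, chr2:75704865-75704913: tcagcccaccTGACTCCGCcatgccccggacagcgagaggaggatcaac
Prdx1, chr4:116685436-116685504: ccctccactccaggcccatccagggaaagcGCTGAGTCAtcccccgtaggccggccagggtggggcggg
Sod1, chr16:90220676-90220744: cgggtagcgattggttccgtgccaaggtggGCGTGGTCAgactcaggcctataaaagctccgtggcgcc
The Nfe2l2 match reads on the gene's own strand, and those of Prdx1 and Sod1 read on the opposite strand. The AP-1 site TGANTCA, which is its own reverse complement and is bound by Jun and Fos factors, was in 7.81% of windows and among the members only in that of Prdx1. There it occurred at 2 positions, one of which overlaps the antioxidant response element core shown. A match describes the letters of the window and is not a measured binding site.

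The selenocysteine codon is shown for the other pair of members with a sequence hallmark. Gpx1 and Gpx4 are selenoproteins, in which a TGA codon that would otherwise stop translation codes for selenocysteine at the active site. The annotated codon, with coding sequence on each side, reads as follows in the GENCODE vM21 transcripts of build GRCm38, the codon being in capitals.
Gpx1, codon 47 of 201, chr9:108339451-108339453: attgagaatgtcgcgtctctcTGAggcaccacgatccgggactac
Gpx4, codon 73 of 197 in Gpx4-202, chr10:80054737-80054739: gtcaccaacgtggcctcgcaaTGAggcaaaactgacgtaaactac

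Libraries had 6834594 to 31262609 counts. Cell type labels were checked against 19 oocyte and 19 granulosa markers. Summed oocyte markers ran from 25456 to 60617 CPM in control oocytes and from 18164 to 66198 CPM in doxorubicin oocytes, and exceeded the granulosa markers in all 32. In libraries labelled granulosa the oocyte markers also ran high, from 426 to 17234 CPM in controls and from 374 to 43924 CPM after doxorubicin. They exceeded the granulosa markers in 5 of 16 control and 8 of 13 doxorubicin granulosa libraries, with every granulosa marker at 1 CPM or more in both groups. Granulosa markers reached 1355 CPM in control oocytes and 3787 CPM in doxorubicin oocytes. Results that these markers touch are therefore also given for low-marker libraries, which are the 8 control and 10 doxorubicin oocytes under 200 CPM of granulosa and of stroma markers and the 11 control and 5 doxorubicin granulosa libraries with more granulosa than oocyte markers. The granulosa libraries were not chosen by stroma or red blood cell markers. Among the 5 doxorubicin ones, cell 13 had 7956 CPM of stroma and 2665 CPM of granulosa markers. Cell 15 had 35132 CPM of red blood cell markers, and cell 8 had 5102 CPM of oocyte and 13438 CPM of granulosa markers. For oocyte 4 of the doxorubicin group the submitters report losing the reads, and the column in the count table was used.

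After doxorubicin, the antioxidant enzymes of the oocyte differed from control by less than 2-fold, and Hmox1 by more. Hmox1, the inducible haem oxygenase that breaks down haem, was 4.53 times as high in doxorubicin as in control oocytes. Nfe2l2 was 1.69 times as high. The other 8 members differed by less than 0.5 on the log2 scale, 7 of them upward and Gpx1 downward. In the granulosa libraries no member was past 2-fold, and in control cells 5 members were lower in oocytes than in granulosa libraries by more than 2-fold: Cat, Prdx2, Txn1, Nfe2l2 and Hmox1. Of all genes compared, 8.75%, 40.6% and 60.3% were past 2-fold in either direction in these 3 comparisons, in that order.

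**Figure D1:**
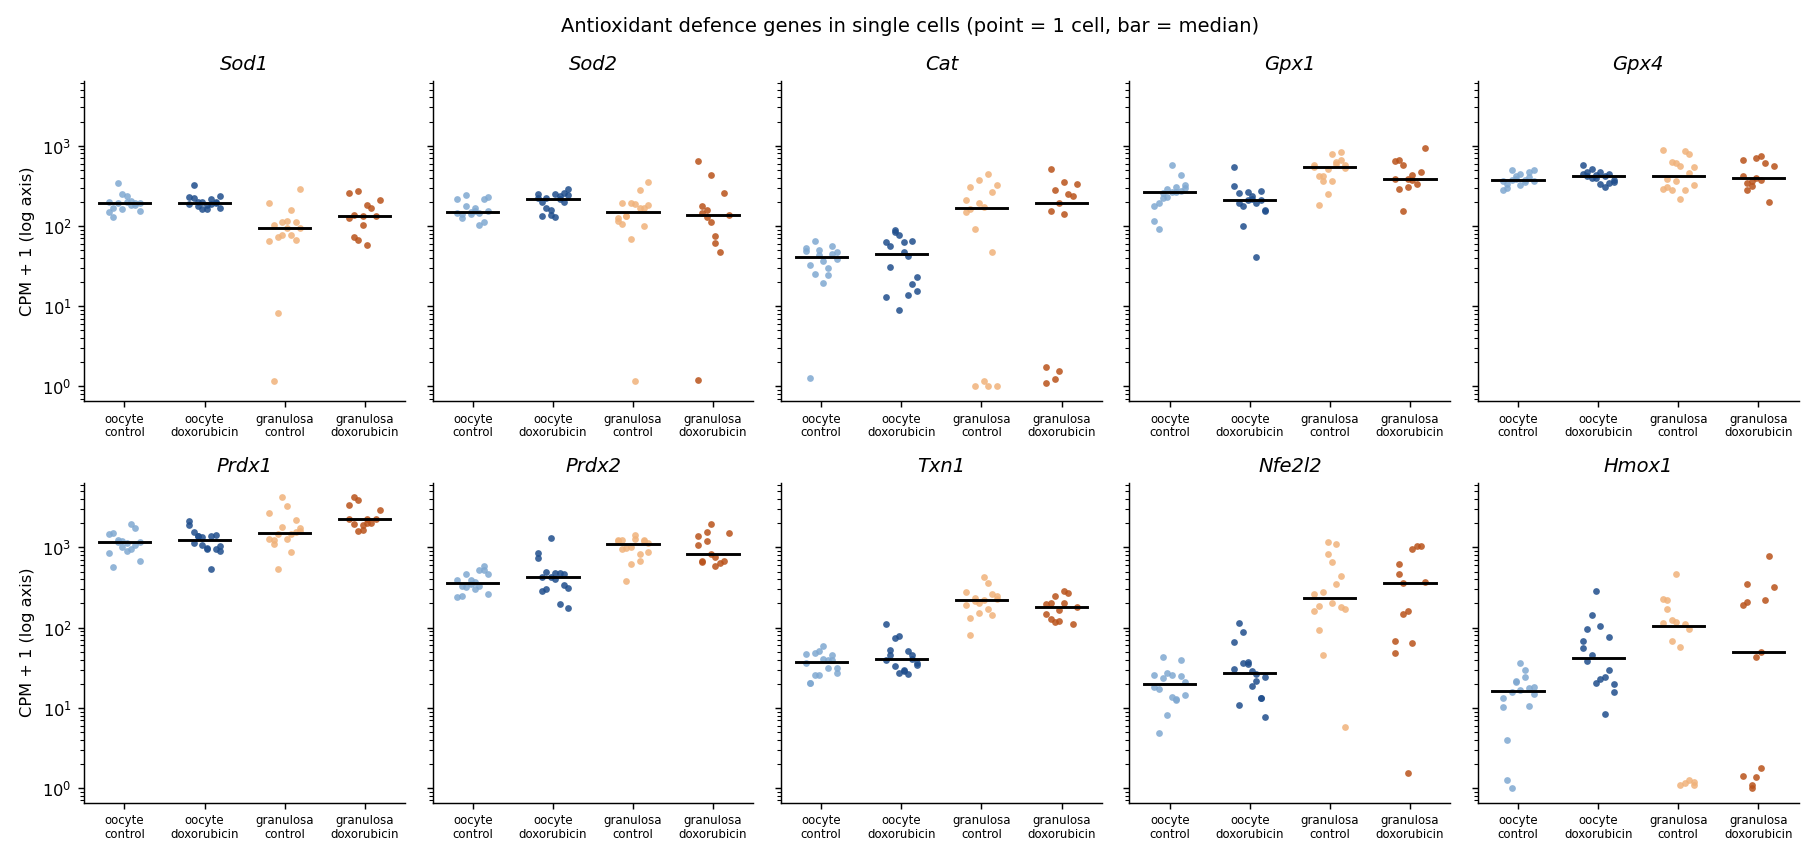
Level of each of the 10 members in each of the 61 cells, as CPM + 1 on a log axis, with the median of each group as a bar. In oocytes Hmox1 has medians of 15.4 CPM in control and 40.9 CPM after doxorubicin, while in the granulosa groups Cat and Hmox1 split into cells near 0 and cells far above it.

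In doxorubicin against control oocytes, 1 of the 10 members was past 2-fold, Hmox1, and it was higher. Over the 11119 genes compared, 6.30% were past 2-fold higher and 2.45% lower, 8.75% in either direction. The median log2 ratio was 0.20 over the members and 0.01 over all genes compared.

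Hmox1 (chr8:75093621-75100589) had 0, 15.4 and 35.4 CPM as the lowest, median and highest of the 16 control oocytes, and 7.32, 40.9 and 281 CPM among the 16 treated ones. The groups overlapped, since 7 doxorubicin oocytes lay within the control range, but the other 9 were above every control oocyte. For 1.12% of genes compared at least 9 of the 16 doxorubicin oocytes lay above every control oocyte, and for no gene (0.00%) did all of them. From summed counts Hmox1 stood at 15.1 CPM without and 68.5 CPM with doxorubicin, a log2 ratio of 2.18 (2.12 to 2.24). Of the genes compared, 97.8% had a lower ratio.

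Single doxorubicin oocytes differed widely in Hmox1. The highest, oocyte 4, had 281 CPM and held 29.7% of the group's Hmox1 counts, followed by oocyte 3 with 142 CPM and oocyte 5 with 104 CPM. The lowest were oocyte 14 with 7.32 CPM and oocyte 8 with 14.7 CPM, both below the control median. Without oocyte 4 the log2 ratio was 1.78, the lowest value on leaving out any cell, and by the difference of cell medians on the log2(CPM + 1) scale it was 1.35.

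Macrophages and red cell precursors also express Hmox1, so markers of both were read beside it. Of 10 macrophage markers 7 had a row, and their sum ran from 0 to 17.7 CPM in control oocytes and from 0 to 48.7 CPM after doxorubicin, with Cd68, Lyz2, C1qa, C1qb and C1qc under 1 CPM in both groups. Csf1r had 0 CPM in control and 4.22 CPM in treated oocytes, and Mrc1 5.40 and 0 CPM. The 48.7 CPM stood in oocyte 4, the oocyte highest in Hmox1, and over the 16 treated oocytes Hmox1 followed the macrophage sum with r = 0.55 and rho = 0.47. Of 8 red blood cell markers 6 had a row, and their sum ran from 0 to 7.38 CPM in control oocytes and from 0 to 82.6 CPM after doxorubicin, with the highest in oocyte 8. The Hmox1 ratio was 2.37 in libraries under 10 CPM of red blood cell and under 50 CPM of macrophage markers (9 doxorubicin, 16 control), 2.43 in low-marker oocytes, and 2.71 in the 6 doxorubicin and 8 control oocytes that were low by all of these markers, a choice made after the data were seen. The macrophage limit left out no oocyte, and oocyte 4 stayed in each of these sets. These ratios therefore do not show Hmox1 without the oocyte highest in both. In the low-marker oocytes 6 of 10 doxorubicin cells were above the highest of 8 control cells, as for 4.21% of genes, which had 6 or more of the 10 above. Endothelial markers ran from 0.167 to 50.5 CPM in control oocytes and from 0.18 to 155 CPM after doxorubicin, the latter in oocyte 3, and their part in the result was not tested.

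Nfe2l2 (chr2:75675513-75704641) had 3.81, 18.7 and 41.5 CPM as the lowest, median and highest in control oocytes, and 6.61, 26.6 and 112 CPM in treated oocytes. Most cells of the groups overlapped, and 3 of 16 treated oocytes were above every control oocyte. Its group levels were 19.7 and 33.4 CPM, a log2 ratio of 0.76 (0.70 to 0.82). Those 3 oocytes, numbers 10, 11 and 9 with 112, 87.6 and 64.5 CPM, also carried granulosa markers at 459, 3321 and 3787 CPM, and Nfe2l2 stood at 353 CPM in control granulosa libraries. The ratio was 0.74 in low-marker oocytes, where 5 of 10 doxorubicin cells were above every control cell and the highest had 36.2 CPM, and 0.52 without oocyte 10.

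**Figure D2:**
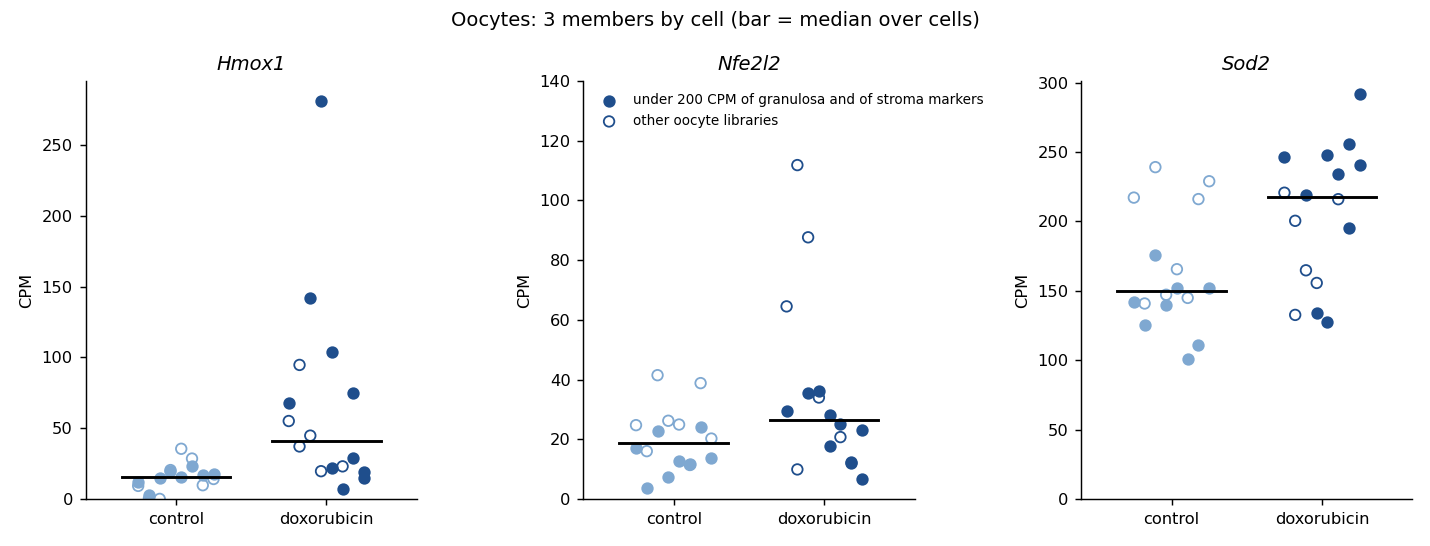
Hmox1, Nfe2l2 and Sod2 in each oocyte, in CPM on axes that start at 0, with filled points for libraries under 200 CPM of granulosa and of stroma markers and open points for the others. For Hmox1 the filled doxorubicin points reach 281 CPM, whereas the 3 highest doxorubicin points of Nfe2l2 are open.

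Sod1 (chr16:90220754-90226329), the cytosolic copper and zinc enzyme, had 130, 193 and 343 CPM as the lowest, median and highest in control oocytes, and 161, 195 and 322 CPM in doxorubicin oocytes. The doxorubicin cells lay wholly inside the control range. Its log2 ratio was 0.07 (0.05 to 0.09), which makes it the least different member in this comparison.

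Sod2 (chr17:13006846-13040063), the mitochondrial manganese enzyme, had 101, 150 and 239 CPM in control oocytes and 128, 218 and 292 CPM after doxorubicin. Among treated oocytes 13 of 16 were above the control median and 5 above every control oocyte. Group levels gave a log2 ratio of 0.25 (0.23 to 0.27), cell medians 0.54, and low-marker oocytes 0.65. In those low-marker libraries 8 of 10 doxorubicin oocytes were above the highest control, at 176 CPM, which compares with the 4.21% of genes given for Hmox1. The difference was 0.13 in the libraries low in red blood cell and macrophage markers, so its size depended on the libraries used.

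Catalase and the glutathione peroxidases remove hydrogen peroxide, and Gpx4 also reduces lipid peroxides in membranes. Cat (chr2:103453849-103485160) had 0.25, 39.6 and 63.8 CPM as the lowest, median and highest in control oocytes and 8.04, 43.9 and 87.4 CPM in doxorubicin oocytes. The groups overlapped over most of their range, and the log2 ratio was 0.14 (0.10 to 0.19), with -0.21 in low-marker oocytes.

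Gpx1 (chr9:108338903-108340343) was the only member lower in doxorubicin oocytes. Its lowest, median and highest levels were 91.6, 262 and 573 CPM in control oocytes and 39.8, 209 and 536 CPM after treatment, and 12 of 16 doxorubicin oocytes were below the control median. The log2 ratio was -0.30 (-0.32 to -0.29) with all cells, -0.09 in low-marker oocytes and 0.16 in the 6 and 8 oocytes low by all markers.

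Gpx4 (chr10:80047166-80056439) was among the most even members, with 278, 370 and 504 CPM in control oocytes and 307, 419 and 575 CPM after doxorubicin. The log2 ratio was 0.13 (0.11 to 0.14), and 12 of 16 doxorubicin oocytes were above the control median. A processed copy, Gpx4-ps2, had its own row at 46.2 to 65.7 CPM over the 4 groups and followed Gpx4 with r = 0.91 over the 32 oocytes. Because 98.4% of cells had Gpx4 counts that were not whole, its reads were shared out between rows and its level is uncertain by the part that belongs to the copy. Counts were also not whole in 96.7% of cells for Prdx2, 90.2% for Prdx1, 72.1% for Sod1, 31.1% for Sod2 and 21.3% for Gpx1. Their levels are likewise uncertain by any reads shared with other rows. For Cat, Txn1, Nfe2l2 and Hmox1 all counts were whole.

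Peroxiredoxins reduce peroxides with a reactive cysteine, and Prdx1 was the most abundant member. Prdx1 (chr4:116685544-116700822) had 575, 1156 and 1968 CPM in control oocytes and 536, 1250 and 2117 CPM after doxorubicin. The ranges nearly coincided, with 1 doxorubicin oocyte above and 1 below all controls, and the log2 ratio was 0.10 (0.09 to 0.11). Over the alternatives the ratio ran from -0.05 to 0.16, so its sign depended on the processing.

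Prdx2 (chr8:84969587-84974834) had 238, 362 and 580 CPM in control oocytes and 176, 430 and 1311 CPM after doxorubicin. Among treated oocytes 3 were above and 2 below all controls, so the doxorubicin group spread further in both directions. The log2 ratio was 0.34 (0.33 to 0.36), and 0.14 without oocyte 4, which held the 1311 CPM. It was 0.46 in low-marker oocytes and 0.74 in the oocytes low by all markers, so it ran from 0.14 to 0.74 over the alternatives. The exons of Prdx2 overlap those of Junb and Rnaseh2a on the other strand, and no strand was stated for the counting, so reads of these genes cannot be told apart where they overlap. Over the 16 doxorubicin oocytes, which share library and depth effects, Prdx2 and Hmox1 had r = 0.71 and rho = 0.64, and in control oocytes r = 0.33.

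Txn1 (chr4:57943373-57956411) encodes thioredoxin. Its levels were 19.3, 36.4 and 58.0 CPM in control oocytes and 25.5, 39.1 and 111 CPM after doxorubicin. Most cells overlapped, and 3 doxorubicin oocytes were above every control. The log2 ratio was 0.35 (0.30 to 0.40) from summed counts and 0.10 from cell medians, and 0.13 in low-marker oocytes. The 3 highest, oocytes 9, 12 and 11 with 111, 77.4 and 72.5 CPM, were also the 3 highest in granulosa markers, whose part in the ratio was not tested further.

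**Figure D3:**
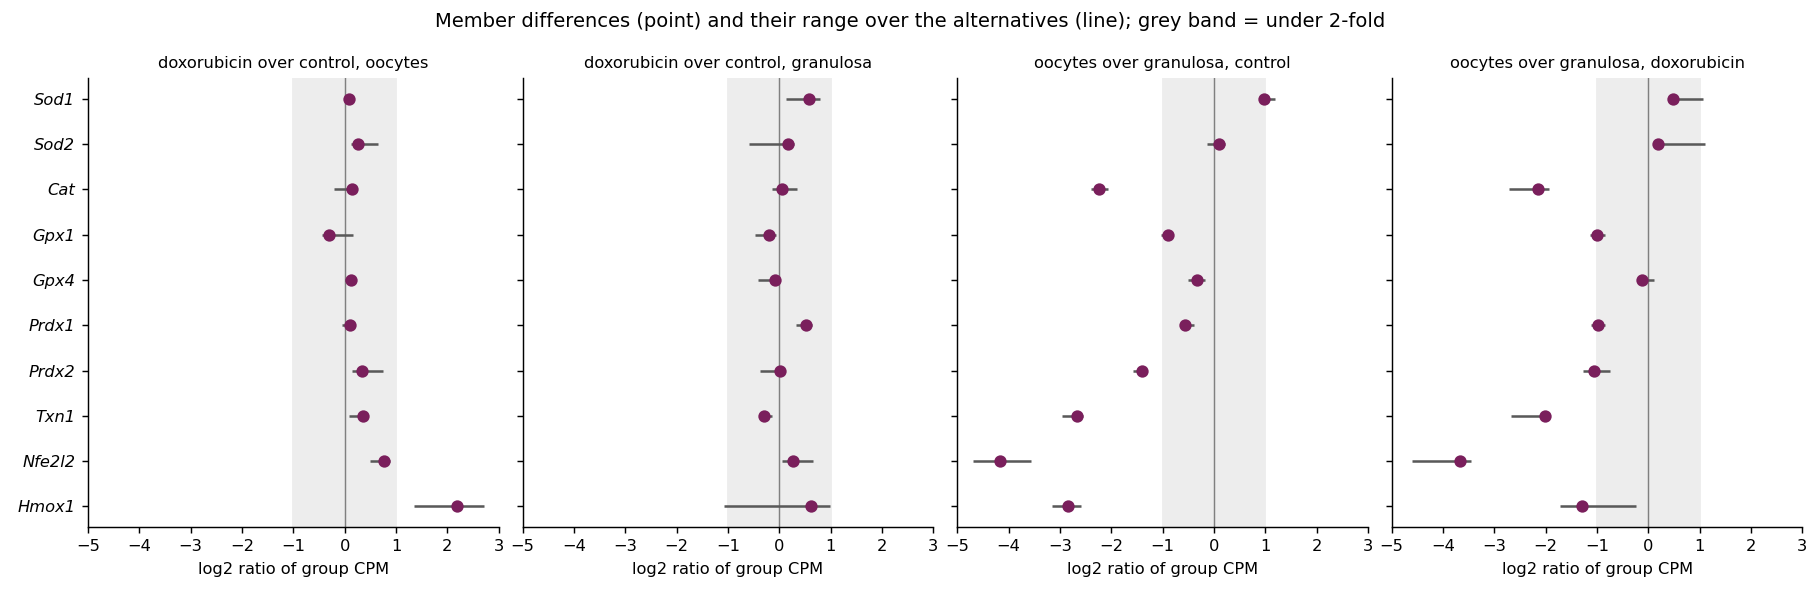
Log2 ratio of group CPM for each member in the 4 comparisons (points), with the range over all alternatives as a line and the band under 2-fold in grey. In doxorubicin over control oocytes Hmox1 alone lies outside the band, with its line from 1.35 to 2.71, and in granulosa its line runs from -1.07 to 1.00.

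Other genes of the pathway come from 12 lists of 75 further genes, of which 65 were compared in oocytes. Past 2-fold were 7 higher and 1 lower, where 6.30% of all genes compared were higher and 2.45% lower. Genes named only to spell out a small count were chosen after their values were seen. Among 12 NRF2 target genes other than the members 0 were past 2-fold, with a median log2 ratio of 0.11, and the same count of 0 held for 8 genes of glutathione synthesis and reduction, 4 other peroxiredoxins, 9 thioredoxins and glutaredoxins, 8 NRF2 regulators, 7 genes of haem and iron handling, 6 of selenoprotein synthesis and 4 oxidant-producing enzymes. For lists this small a count of 0 is close to the 6.30% and 2.45% of all genes and is not a result about them. In the low-marker oocytes 2 of 12 NRF2 targets were past 2-fold higher, Nqo1 and Gstm1, beside 8.19% of all genes.

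Most of the higher genes stood in the list of p53-linked antioxidant genes, some of which p53 is known to switch on after DNA damage. Like the other lists, it was chosen with earlier results of these data known. Of its 7 genes 4 were past 2-fold higher in doxorubicin oocytes, beside 6.30% of all genes, with a median of 1.10 over the list. Sesn2, whose product sestrin 2 supports peroxiredoxin recycling, had 15.6 CPM in control oocytes and 77.4 CPM after doxorubicin, a log2 ratio of 2.31 (2.25 to 2.37). Aldh4a1, a mitochondrial proline pathway enzyme, had 49.0 and 118 CPM and a ratio of 1.27. Trp53inp1, a stress-induced p53 partner, had 36.2 and 77.5 CPM and a ratio of 1.10. Gls2, a mitochondrial glutaminase, had 5.53 and 13.9 CPM and a ratio of 1.33. All 4 were also past 2-fold in the low-marker oocytes, where 6 of 58 listed genes were higher and 0 lower, against 8.19% and 3.17% of genes. The other 3 higher genes with all oocytes, Gpx7, Gpx8 and Mt1, and the lower gene, Sod3, were not past 2-fold there or were under 5 CPM. Control and doxorubicin levels of all 4 of these were at most 10.3 CPM.

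**Figure D4:**
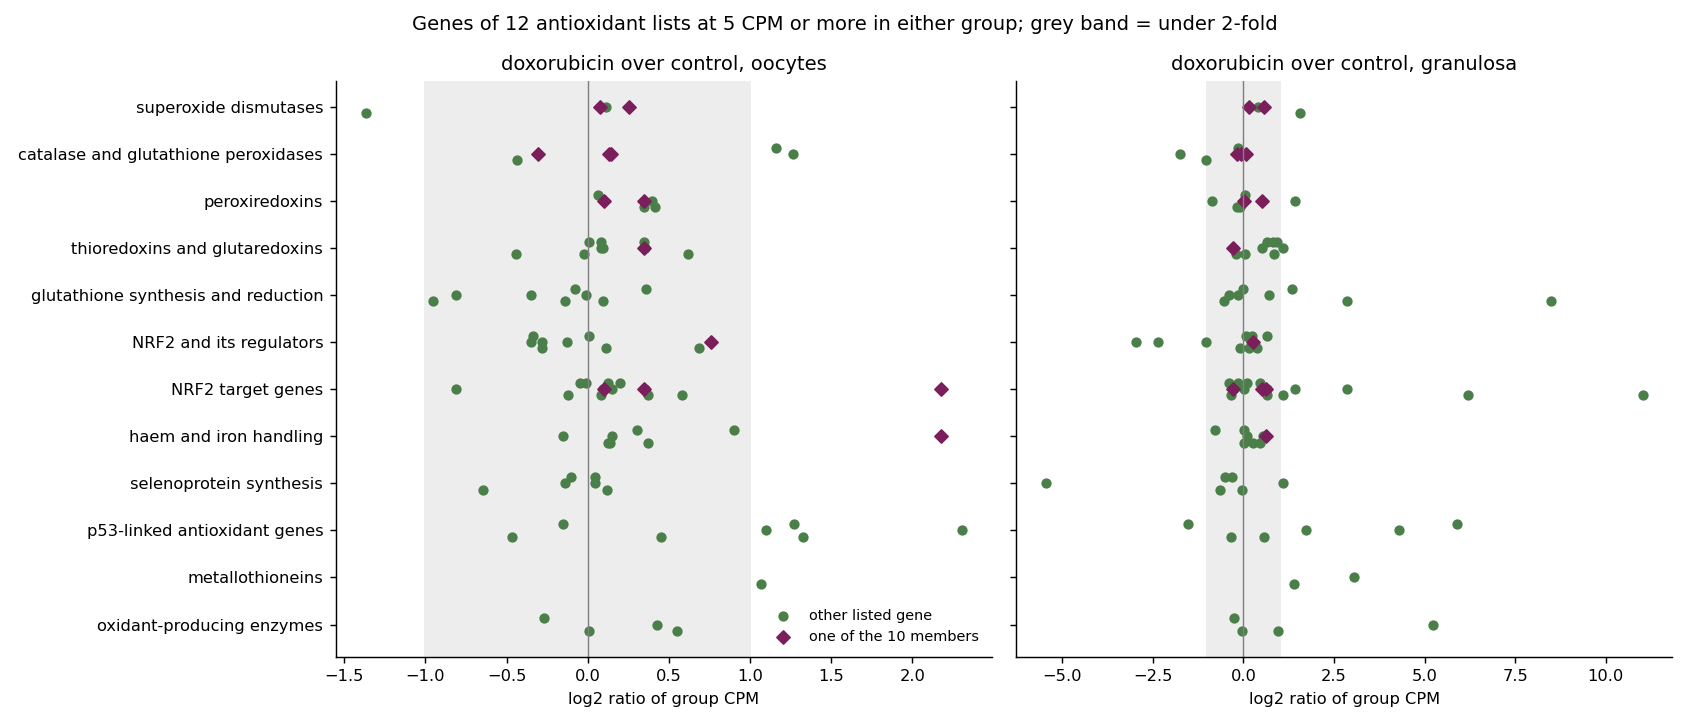
Log2 ratio of every gene of the 12 antioxidant lists that reached 5 CPM in either group, in oocytes (left) and in granulosa libraries (right, on a wider axis), with members as diamonds and a group under 3 counts set to 3 counts. In oocytes Hmox1 at 2.18 and Sesn2 at 2.31 lie furthest to the right.

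In granulosa libraries 0 of the 10 members were past 2-fold after doxorubicin, where 20.6% of the 12194 genes compared were past 2-fold higher and 2440 genes were lower, 40.6% in all. The median log2 ratio was 0.11 over the members and -0.03 over all genes. The groups of this comparison also differed in oocyte markers. All 17 oocyte markers compared were past 2-fold higher in the doxorubicin libraries, and the part of those markers in the member values was not tested except where low-marker values are given.

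Prdx1 gave the most even difference. Its lowest, median and highest levels were 539, 1510 and 4200 CPM in control and 1590, 2230 and 4219 CPM in doxorubicin granulosa libraries. The ranges overlapped, yet all 13 doxorubicin libraries were above the control median. The log2 ratio was 0.53 (0.52 to 0.53) and ran from 0.33, its value in low-marker libraries, to 0.64 over the alternatives.

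Sod1 had 0.15, 92.7 and 289 CPM in control and 56.1, 131 and 275 CPM in doxorubicin granulosa libraries. The doxorubicin values lay inside the control range, with 10 of 13 above the control median. Its log2 ratio was 0.58 (0.55 to 0.61) with all libraries and 0.13 in low-marker libraries. Over the 13 doxorubicin libraries Sod1 followed the summed oocyte markers with r = 0.81 and rho = 0.74, and over the 16 controls with r = 0.42 and rho = 0.39, points that share library and depth.

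Hmox1 divided the granulosa libraries. In controls 5 of 16 had under 5 CPM and the other 11 had 56.8 to 462 CPM, and after doxorubicin 5 of 13 had under 5 CPM and the other 8 had 41.9 to 774 CPM. The group levels of 109 and 167 CPM gave a log2 ratio of 0.62 (0.59 to 0.65). That value was 0.05 without doxorubicin granulosa cell 9, which had 774 CPM, -0.32 in low-marker libraries, 1.00 in libraries under 100 CPM of red blood cell markers, and -1.07 by cell medians of 102 and 48.2 CPM, so its direction depended on how cells were combined. Over the 13 doxorubicin libraries Hmox1 followed Sesn2 with r = 0.91 and rho = 0.84, and over the 16 controls with r = 0.15 and rho = 0.15. Its correlation with the summed oocyte markers was -0.40 after doxorubicin and -0.62 in controls.

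**Figure D5:**
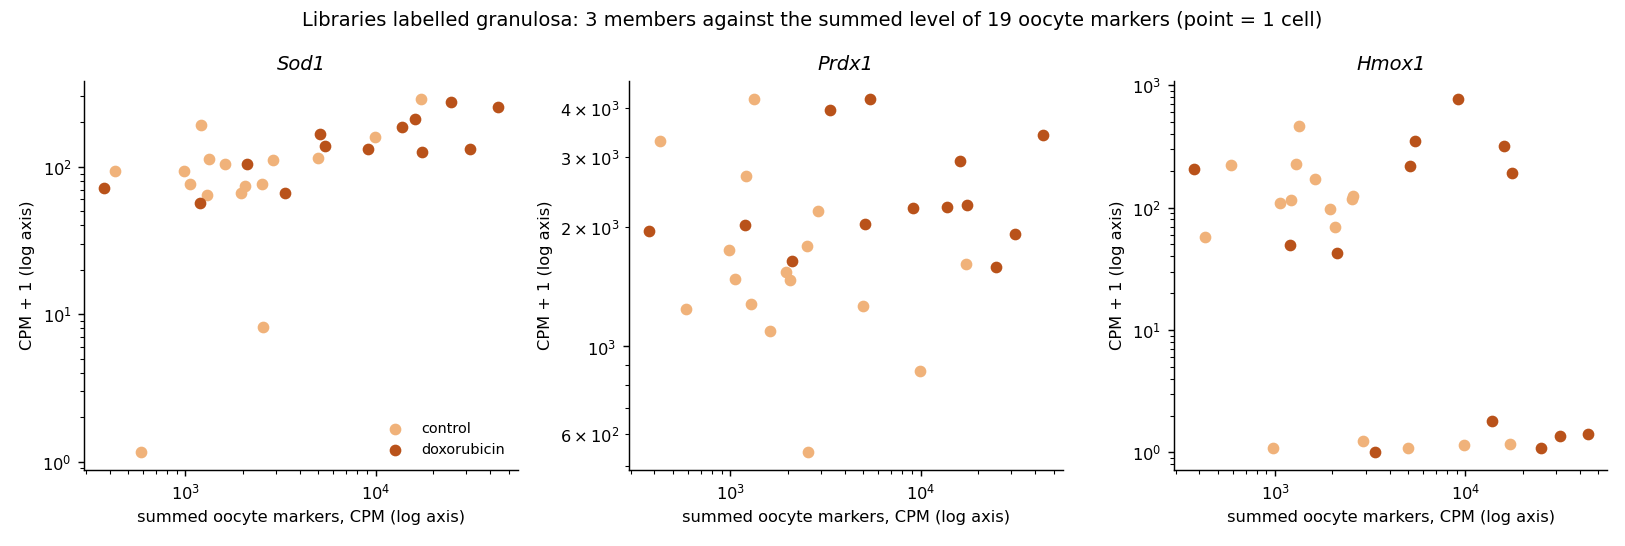
Sod1, Prdx1 and Hmox1 in each library labelled granulosa, as CPM + 1, against the summed CPM of 19 oocyte markers, both on log axes. Sod1 lies higher where oocyte markers are higher (r = 0.81 after doxorubicin), and Hmox1 is near 0 in 10 of the 29 libraries.

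Nfe2l2 had 4.76, 232 and 1158 CPM in control and 0.55, 362 and 1035 CPM in doxorubicin granulosa libraries. The ranges coincided almost wholly, and the log2 ratio was 0.28 (0.26 to 0.29), with 0.65 in low-marker libraries and 0.05 without doxorubicin cell 8.

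Cat had 0, 167 and 444 CPM in control and 0.10, 190 and 508 CPM in doxorubicin granulosa libraries, with 4 libraries under 5 CPM in each group. Its log2 ratio was 0.06 (0.04 to 0.09). Sod2 had 0.16, 149 and 347 CPM in control and 0.21, 135 and 643 CPM after doxorubicin. Its ratio of 0.16 (0.14 to 0.19) became -0.14 without doxorubicin cell 1, which had 643 CPM, and -0.60 in low-marker libraries.

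Gpx1 had 179, 539 and 823 CPM in control and 153, 387 and 941 CPM in doxorubicin granulosa libraries, with a log2 ratio of -0.19 (-0.21 to -0.18). It was lower after doxorubicin, as with all oocytes together but not with the oocytes low by all markers, where the ratio was 0.16. In granulosa 9 of 13 doxorubicin libraries were below the control median. Gpx4 had 213, 418 and 878 CPM in control and 200, 397 and 748 CPM after doxorubicin, a ratio of -0.07 (-0.09 to -0.06), with -0.42 in low-marker libraries.

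Prdx2 had 378, 1087 and 1436 CPM in control and 589, 834 and 1986 CPM in doxorubicin granulosa libraries. Its log2 ratio was 0.01 (0.00 to 0.02) from summed counts and -0.38 from cell medians. Txn1 had 78.9, 217 and 431 CPM in control and 109, 180 and 287 CPM after doxorubicin, a ratio of -0.30 (-0.32 to -0.27). For Txn1, 10 of 13 doxorubicin libraries were below the control median, all inside the control range.

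Of the 75 further list genes, 67 were compared in granulosa libraries, and 15 were past 2-fold higher and 7 lower, where 20.6% of all genes were higher and 2440 of 12194 lower, so the count is near the background. The NRF2 targets had 5 of 13 higher and 0 lower: Nqo1, Gclc, Txnrd1, Srxn1 and Osgin1. In low-marker libraries they had 5 of 12 higher, with Abcc1 in place of Txnrd1, and Gclm lower. Of all 11877 genes compared in those libraries, 2372 were past 2-fold higher and 2727 lower. Nqo1, a quinone reductase, had 0.734 CPM in control and 54.2 CPM in doxorubicin libraries, a log2 ratio of 6.21 (5.96 to 6.46). Of 13 doxorubicin libraries 6 were above all controls, short of the majority that 0.631% of the 12194 genes compared reached. The ratio was 6.11 in low-marker libraries, and 0.35 by cell medians. Osgin1, an oxidative stress-induced growth inhibitor, had 0.0222 and 46.1 CPM, a ratio of 11.02 (9.66 to 12.89), with 8.94 in low-marker libraries and 0.22 by cell medians, and it stood at 125 CPM in control oocytes. Txnrd1, which recharges thioredoxin, had 143 and 305 CPM and a ratio of 1.09 (1.07 to 1.11), and it was not past 2-fold in low-marker libraries. Keap1, Bach1 and Maff, 3 regulators of NRF2 binding or stability, were past 2-fold lower, Keap1 with 65.4 and 12.8 CPM.

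Among the p53-linked genes 3 of 6 were past 2-fold higher and 1 lower in granulosa libraries, beside the same 20.6% of all genes higher. In low-marker libraries 3 of 6 were higher and 0 lower, where 2372 of all 11877 genes compared were higher and 2727 lower. Trp53inp1 had 5.69 CPM in control and 112 CPM after doxorubicin, a ratio of 4.30 (4.21 to 4.39), and 3.26 in low-marker libraries. Of 13 doxorubicin libraries 8 were above every control, and a majority were so for 0.631% of all genes compared. Sesn2 had 109 and 363 CPM and a ratio of 1.74 (1.71 to 1.76). Aldh4a1 had 0.951 and 57.1 CPM and a ratio of 5.91, with 0.14 by cell medians and 49.0 CPM in control oocytes. Sesn3 was the lower gene. By the naming rule Mt2, a metallothionein, had 6.12 and 50.9 CPM and a ratio of 3.06, with 0.59 in low-marker libraries, and Sepsecs, which makes the selenocysteine used in Gpx1 and Gpx4, had 5.50 and 0.126 CPM and a ratio of -5.45.

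Oocytes and granulosa libraries were compared next, within each treatment, and these comparisons share their groups with those above. In controls 5 of 10 members were past 2-fold lower in oocytes and 0 higher, against 31.3% of the 12373 genes lower and 3590 genes higher, 60.3% in all. The median log2 ratio of oocytes over granulosa was -1.14 over the members and -0.03 over all genes compared. After doxorubicin 6 of 10 were lower and 0 higher, against 28.2% and 27.6% of 12428 genes, 55.8% in all, with medians of -1.03 and 0.02.

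Txn1 separated the control cell types without overlap. Its 16 control oocytes had 19.3 to 58.0 CPM and its 16 control granulosa libraries 78.9 to 431 CPM, a log2 ratio of -2.67 (-2.71 to -2.63). All cells of oocytes lay below all granulosa cells for 0.453% of the genes compared. After doxorubicin 15 of 16 oocytes were below every granulosa library, the exception being oocyte 9, and the ratio was -2.02.

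Nfe2l2 had the largest difference between cell types among the members. Group levels were 19.7 CPM in control oocytes and 353 CPM in control granulosa libraries, a log2 ratio of -4.16 (-4.21 to -4.12), and -3.68 after doxorubicin. The control cells overlapped only through granulosa cell 8, with 4.76 CPM, since the next granulosa library had 44.4 CPM and the highest control oocyte 41.5 CPM. Cat was 4.70 times as high in control granulosa libraries, at 182 CPM against 38.6 CPM, with a ratio of -2.23, and -2.15 after doxorubicin. In controls the cell types overlapped through 5 granulosa libraries, 4 of them under 5 CPM and the other at 46.9 CPM, below the highest control oocyte at 63.8 CPM.

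Hmox1 differed between cell types by -2.85 (-2.91 to -2.79) in controls and by -1.29 (-1.32 to -1.26) after doxorubicin. The doxorubicin value was -0.24 by cell medians, -0.40 in low-marker libraries and -0.72 without doxorubicin granulosa cell 9. Prdx2 had 386 CPM in control oocytes and 1016 CPM in control granulosa libraries, a ratio of -1.40, with 9 of 16 oocytes below every granulosa library, and -1.07 after doxorubicin. For 1.22% of genes in controls at least 9 of the 16 oocytes lay below every granulosa library.

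Gpx1 and Prdx1 were lower in oocytes by less, and Sod1 was the member highest in oocytes relative to granulosa. Gpx1 had ratios of -0.89 in controls and -1.0 after doxorubicin, and Prdx1 -0.56 and -0.99. After doxorubicin 14 of 16 oocytes were below every granulosa library for Prdx1 and 13 of 16 for Prdx2, and 1.04% of genes had at least 9 below. Sod1 had ratios of 0.98 and 0.47, the first just under 2-fold, and 1.11 and 1.06 in low-marker libraries. With TMM and DESeq2 factors the control ratio of Sod1 was 1.01 and 1.04, and that of Gpx1 after doxorubicin -0.99 and -0.95, so both lie at the limit. Sod2 and Gpx4 stood close together in the cell types, with control ratios of 0.10 and -0.32. After doxorubicin Sod2 had a ratio of 0.18 with all libraries and 1.11 in low-marker libraries.

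Set against each other per kilobase of longest transcript, the members kept a wide order in control oocytes. Prdx1 was highest with 512 CPM per kilobase, followed by Gpx4 with 386, Gpx1 with 257 and Prdx2 with 239, and Nfe2l2 with 7.97 and Hmox1 with 9.63 were lowest. In doxorubicin oocytes Hmox1 stood at 43.6 CPM per kilobase, at rank 6 against rank 9 in controls, between Sod1 with 51.1 and Txn1 with 42.8. By median transcript length it stood at rank 7. Prdx1 also led the control and doxorubicin granulosa libraries, with 753 and 1084 CPM per kilobase. The place of Sod2 depended on the length used, at rank 7 by longest and rank 5 by median transcript in control oocytes.

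Co-variation over cells is a description only, over cells that share library, depth and cell state. Genes with r of 0.8 or more to a member over the 32 oocytes were Gng12 for Prdx1 (0.80), Bud31 for Prdx2 (0.80), and H2az1 (0.81) and Morf4l1-ps1 (0.87) for Txn1, besides Gpx4-ps2 for Gpx4. Over the 29 granulosa libraries they were Ccdc12 (0.88) and Atp6v1f (0.84) for Sod1, Gpx4-ps2 (0.96) for Gpx4 and Pacc1 (0.83) for Hmox1. Over the 16 doxorubicin oocytes Hmox1 and Nfe2l2 had r = 0.37 and rho = 0.47, and Nfe2l2 followed Cdkn1a, the p53 target that encodes the cell cycle inhibitor p21, with r = 0.76 and rho = 0.80, and the summed granulosa markers with r = 0.69 and rho = 0.51.

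Detection separated the groups less than level did. In oocytes 5 values of 3 control libraries were under 5 CPM over the 10 members, and 0 in the doxorubicin oocytes. In granulosa libraries 12 values in 7 of 16 control and 11 values in 6 of 13 doxorubicin libraries were, in Sod1, Sod2, Cat, Nfe2l2 or Hmox1. Hmox1 had at least 5 reads in 14 of 16 control and 16 of 16 doxorubicin oocytes, and in 13 of 16 and 16 of 16 after each cell was thinned to 1000000 counts. Gpx1, Gpx4, Prdx1, Prdx2 and Txn1 were above 5 CPM in all 61 cells.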

How the data were processed

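RNA of single cells was converted to full-length cDNA and libraries with a SMART-Seq kit, per the labels' protocols, and such kits do not mark strand. What the authors deposited is 1 table of estimated counts, with genes as rows and cells as columns, and 34.0% of its nonzero values are not whole. The submitters' processing notes name Partek, Bowtie2, HISAT2, DESeq2 and build mm10, with no role or version. Annotation and filters are not given in the sources used here. All cells carry 1 batch label. The 22 rows whose symbols had become dates (0.144% of counts) stayed in the totals.

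Estimated counts were rounded and summed over the cells of a group. Log2 ratios of group CPM have exact conditional binomial (Clopper-Pearson) 95% intervals, with a group under 3 counts set to 3 counts. The calculation was tested on simulated data. Scaling alternatives used edgeR 4.0.16 and DESeq2 1.42.0 factors. Coordinates are GENCODE vM21 (GRCm38, the build called mm10) and promoter windows are RefSeq GRCm38.p6. The lists also include selenoprotein synthesis, metallothioneins and oxidant-producing enzymes.

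Members, lists and limits were chosen with earlier results of these data known. From the lists, up to 6 genes per comparison were to be named, those past 2-fold with any cell left out, ordered by their smallest ratio. For likeness, the pair of genes with the highest r to each member was looked up and named where r was at least 0.8.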

Additional observations from a re-analysis of the deposited data

Results flagged for a closer look

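Txn1, the thioredoxin gene, had opposite directions after doxorubicin in the cell types. Its log2 ratio was 0.35 in oocytes and -0.30 in granulosa libraries, and each kept its sign with any single cell left out. By cell medians the oocyte ratio was 0.10, and over the alternatives it ran from 0.08 to 0.40. Over the 16 doxorubicin oocytes Txn1 followed the summed granulosa markers with r = 0.84 and rho = 0.64. Leaving out single cells does not show the part of several such libraries together, which was not tested. The difference between the cell types was not tested, since each group counts as 1 sample. In oocytes 9 of 16 doxorubicin cells were above the control median, and in granulosa libraries 10 of 13 were below it. In low-marker granulosa libraries 3 of 5 doxorubicin cells were above the control median, with a log2 ratio of -0.14.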

How the results depend on the processing

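By the difference of cell medians the count was 1 in place of 0 for doxorubicin over control in granulosa libraries (Hmox1, at -1.07). It was 3 in place of 6 for oocytes over granulosa after doxorubicin. In controls cell medians put Sod1 (1.05, higher in oocytes) and Gpx1 (-1.04) past 2-fold besides the 5 by group levels. The cause of these changes was not tested. Leaving out each cell in turn gave 1 to 1 for doxorubicin over control in oocytes, 0 to 0 in granulosa, 5 to 6 for oocytes over granulosa in controls and 4 to 7 after doxorubicin. Without doxorubicin granulosa cell 9 the last count was 4. The sign of the log2 ratio held under every alternative run for 7, 5, 9 and 9 of the 10 members in these comparisons. TMM and DESeq2 factors were 0.981 to 1.02 and changed no member's sign, but moved the count from 5 to 6 for oocytes over granulosa in controls (Sod1) and from 6 to 5 after doxorubicin (Gpx1). Low-marker libraries gave 7 and 5, and libraries under 100 CPM of red blood cell markers 6 and 6. The alternative with under 10 CPM of red blood cell markers left 1 doxorubicin granulosa library and was not run there. No paired analysis was possible because no comparison rests on a test and shared replicate numbers only name cells. Animals per group are unknown, intervals cover counting error only, and reads are not independent molecules.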

Other observations

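In controls 6 of the 8 genes listed for glutathione synthesis and reduction were past 2-fold higher in oocytes than in granulosa libraries and 0 lower, where 3590 of the 12373 genes compared were higher. They were Gclc, Gclm, Gss, Slc7a11, G6pdx and Chac1, the last of which degrades glutathione, so the count is not one of synthesis alone. Gclm, the modifier subunit of the rate-limiting enzyme, had 164 CPM in oocytes and 59.6 CPM in granulosa libraries, a log2 ratio of 1.46 (1.42 to 1.49). Gss, glutathione synthetase, had 79.6 and 28.6 CPM, and Slc7a11, the cystine importer, 43.1 and 14.1 CPM. After doxorubicin 3 of 8 were higher, against 27.6% of all genes, and Gclc was lower, with 27.8 CPM in oocytes and 79.2 CPM in granulosa libraries. In low-marker libraries 5 of 8 were higher in controls and 5 of 8 after doxorubicin, beside 29.9% and 33.6% of all genes. Other lists also held more higher than lower genes in controls, among them the p53-linked genes with 4 of 7 higher and 2 lower and selenoprotein synthesis with 2 of 6 higher and 0 lower.

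Gstm1, a glutathione transferase, had 56.5 CPM in control oocytes and 1875 CPM in control granulosa libraries, a ratio of -5.05 (-5.08 to -5.02). Fth1, the ferritin heavy chain, had 514 and 2326 CPM with all 16 oocytes below every granulosa library, and all 16 were also below after doxorubicin. Such separation held for 0.453% of genes compared in controls and for 0.193% after doxorubicin. Gpx7, an endoplasmic reticulum peroxidase, had 4.28 and 316 CPM, a ratio of -6.21. Among the other peroxiredoxins and sulfiredoxin 4 of 5 were past 2-fold lower in control oocytes, beside 31.3% of all genes: Prdx3, Prdx4, Prdx6 and Srxn1. Gls2 had 0 counts in either granulosa group and 5.53 CPM in control oocytes, which is at least 331-fold higher than 3 counts over the control granulosa group. Chac1, which degrades glutathione, had 15.1 CPM in control oocytes and 1 count over the control granulosa group.

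Osgin1 and Aldh4a1 stood higher in control oocytes, with ratios of 12.46 and 5.69. After doxorubicin, the genes named by rule for oocytes over granulosa libraries were Gls2, Sepsecs (7.48), Gstm1 (-5.14), Mt1 (-4.73), Cyba (-4.22) and Slc40a1 (-4.22). Cyba, a subunit of the oxidant-producing NADPH oxidase, had 5.10 CPM in doxorubicin oocytes and 94.9 CPM in doxorubicin granulosa libraries, and Slc40a1, the iron exporter ferroportin, 13.8 and 258 CPM.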
